A study of Mus musculus with 12 samples.

Results

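The cytosolic ribosomal proteins are the structural proteins of the ribosomes that translate nuclear-encoded mRNA, named Rps in the small subunit and Rpl in the large subunit. Members were the table rows whose symbol has the form of a ribosomal protein gene (Rps or Rpl with a number, Rplp0 to Rplp2, or Rpsa) and whose log2 value was at least 3 in at least 3 of 12 libraries. By name 88 of the 46078 listed genes matched, and 83 were kept, 33 of the small and 50 of the large subunit, among 10981 kept genes in all. The 5 rows that were not kept are paralogs or copies with few reads. Rpl39l had 4 reads over the 12 libraries, Rps12l1 had 12, Rps3a3 had 67, and Rpl10l and Rps4l had none. Rps3a3 reached the level in 2 libraries and lay just outside the limit, while Rpl6l reached it in 3 and lay just inside. GENCODE M21 annotates 81 of the 83 members as protein coding and 2, Rpl6l and Rps3a2, as processed pseudogenes, so the name alone does not make every member a ribosomal protein.

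The cells were BV2, a line of mouse microglia, the macrophages of the brain; they were either Wild Type (WT) or Atg5 KO, without a gene needed to form autophagosomes. Each genotype was given medium or 1 U/mL of the macrophage-activating cytokine interferon gamma (IFNγ) for 24 h, with 3 independently made libraries, A, B and C, in each of the 4 groups. All cells grew in DMEM with serum; how the knockout was made and how many clones it holds are not given in the sources used here. RNA was taken from the cytosol, enriched for poly-A RNA and read from oligo-dT primers, so a gene is counted mainly near its 3′ end.

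A ribosome holds 1 copy of nearly every ribosomal protein, and cells match the supply of the parts to each other. In mammals most of these mRNAs begin with a C followed by a run of pyrimidines, the terminal oligopyrimidine (TOP) motif. LARP1 and the kinase complex mTORC1 control translation of TOP mRNAs as a class. Ribosomes are also a cargo of autophagy. Several ribosomal proteins have further roles; in human monocytic cells RPL13A leaves the ribosome after IFNγ and joins the GAIT complex, which blocks translation of inflammatory mRNAs such as ceruloplasmin. RNA levels as measured here do not show translation or the protein.

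The recovered reads came to between 3329849 and 7330435 a library. All 13 microglia and macrophage markers were kept, with Csf1r between 9.27 and 10.25 on the log2 scale and the homeostatic markers Tmem119 and P2ry12 reaching no more than 3.70 and 4.34. Of 32 markers of other cell types 17 had no read and 5 were kept. Of those kept, the endothelial marker Kdr lay between 7.15 and 9.75. The oligodendrocyte marker Cnp reached 6.94, and the rest stayed below that. Atg5 mRNA stood at 8.57, 8.51 and 8.35 in WT and at 8.68, 9.02 and 8.84 in KO cells in medium. Reads near the 3′ end need not cross an edit, and the transcript level therefore checks no label.

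The start of the gene carries the TOP motif, and the windows below show it for members described in the results. RefSeq promoter windows (GRCm38.p6) were matched for 61 of the 83 members, with the first listed start where a gene has several. Counted from RefSeq's annotated start, 12 of the 61 (19.7%) begin with a C followed by pyrimidines in a run of at least 5 bases, against 2.25% of 8205 kept genes and 2.49% of all 27018 genes with a window. With the looser condition that such a run begins within 10 bases of the start on either side, the shares were 55.7%, 32.3% and 30.8%. An annotated start can be some bases off the start used in these cells, which were not mapped here, so neither share counts the TOP mRNAs. Each line gives 40 bases before the start and 25 from it, 5′ to 3′ on the gene's strand, with the pyrimidine run at the start in capitals. Rps6, Rps27, Rpl35, Rplp2 and Rpl15 have the run at the start. Rpl13a, Rps27l and Rpl22l1 do not, but they meet the looser condition.
Rps6 (chr4:86857343-86857407, minus strand): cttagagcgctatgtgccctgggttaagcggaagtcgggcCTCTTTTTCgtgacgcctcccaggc
Rps27 (chr3:90213624-90213688, minus strand): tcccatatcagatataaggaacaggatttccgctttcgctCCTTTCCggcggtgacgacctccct
Rpl35 (chr2:39005107-39005171, minus strand): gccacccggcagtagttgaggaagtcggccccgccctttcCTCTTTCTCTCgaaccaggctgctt
Rplp2 (chr7:141447611-141447675, plus strand): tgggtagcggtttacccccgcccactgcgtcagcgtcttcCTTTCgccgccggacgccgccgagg
Rpl15 (chr14:18270962-18271026, minus strand): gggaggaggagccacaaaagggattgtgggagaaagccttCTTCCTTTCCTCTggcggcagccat
Rpl13a (chr7:45128721-45128785, minus strand): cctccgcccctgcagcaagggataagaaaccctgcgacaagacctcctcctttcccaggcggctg
Rps27l (chr9:66946046-66946110, plus strand): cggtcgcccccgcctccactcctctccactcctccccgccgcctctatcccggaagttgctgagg
Rpl22l1 (chr3:28805468-28805532, plus strand): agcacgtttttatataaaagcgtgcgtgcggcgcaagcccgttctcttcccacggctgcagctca

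Motifs were counted in the 300-base windows from 250 bases before to 50 after the start. The ETS family core CCGGAAG, on both strands, was in 39.3% of members, 20.7% of kept genes and 9.12% of all genes with a window, and the GC box GGGCGG, on both strands, in 60.7%, 66.1% and 35.9%. TATAAA on the gene's strand was in 9.84%, 3.92% and 8.88%, and the YY1 core AAGATGGC, on both strands, in 8.20%, 5.42% and 2.88%. The core of the interferon-stimulated response element, a pair of GAAA repeats parted by 2 bases, on both strands, was in 11.5%, 3.23% and 3.49%. The 7 members with it are Rpl5, Rps19, Rpl27a, Rpl4, Rpl38, Rps7 and Rps23. A match is a string of letters and no measured binding.

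As a pool, the 83 genes supplied a like share of the mRNA in every library. They took 7.61%, 8.49% and 8.73% of the reads in WT medium A, B and C, and 8.54%, 8.63% and 8.27% with IFNγ. In KO cells they took 7.68%, 9.05% and 8.50% in medium and 8.42%, 8.68% and 8.50% with IFNγ. Group means were 8.28% ± 0.59 (SD, n = 3) in WT medium, 8.48% ± 0.19 in WT with IFNγ, 8.41% ± 0.69 in KO medium and 8.54% ± 0.13 in KO with IFNγ. The 4 groups overlap. The lowest share is that of library A in both medium groups and in KO with IFNγ, and that of C in WT with IFNγ.

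**Figure D1:**
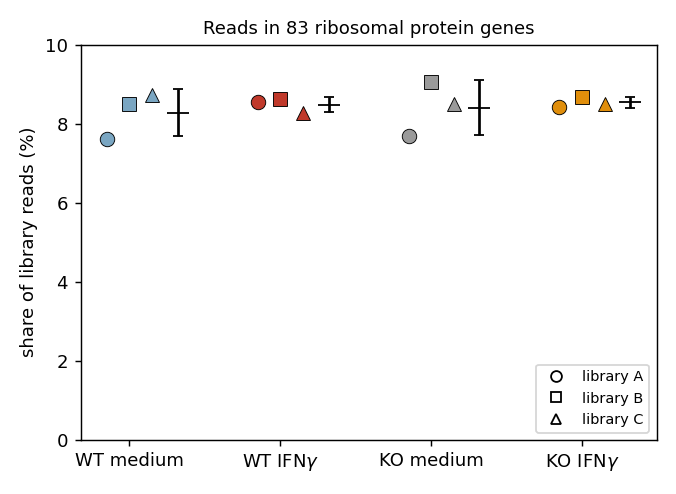
Share of each library's reads that fell in the 83 ribosomal protein genes, in percent, for the 4 groups; symbols mark libraries A, B and C, and the bars beside them give the mean and SD of 3 libraries. The groups overlap, with all libraries between 7.61% and 9.05%.

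The first comparison asked which ribosomal protein mRNAs IFNγ changed in WT cells. None of the 83 passed limma's test at an adjusted p under 0.05, where 6.65% of all kept genes did, and none passed with voom. Of 382 other genes with a mean log2 value of at least 11, a limit set after the levels were seen, 8.12% passed. At an unadjusted p under 0.05 there were 3 members higher and 2 lower, against 19.9% of all genes in either direction. Members moved little: their median log2 change was 0.11 (all genes -0.018), the middle 50% of them lay between -0.0016 and 0.22, and 62 of 83 were above 0. For 77 members the 95% interval lay within a log2 change of 1 in either direction, so a larger change is outside their intervals. The groups did not overlap for 16 members in the higher direction (12.9% of all genes) and 3 in the lower (11.3% of all genes).

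**Figure D2:**
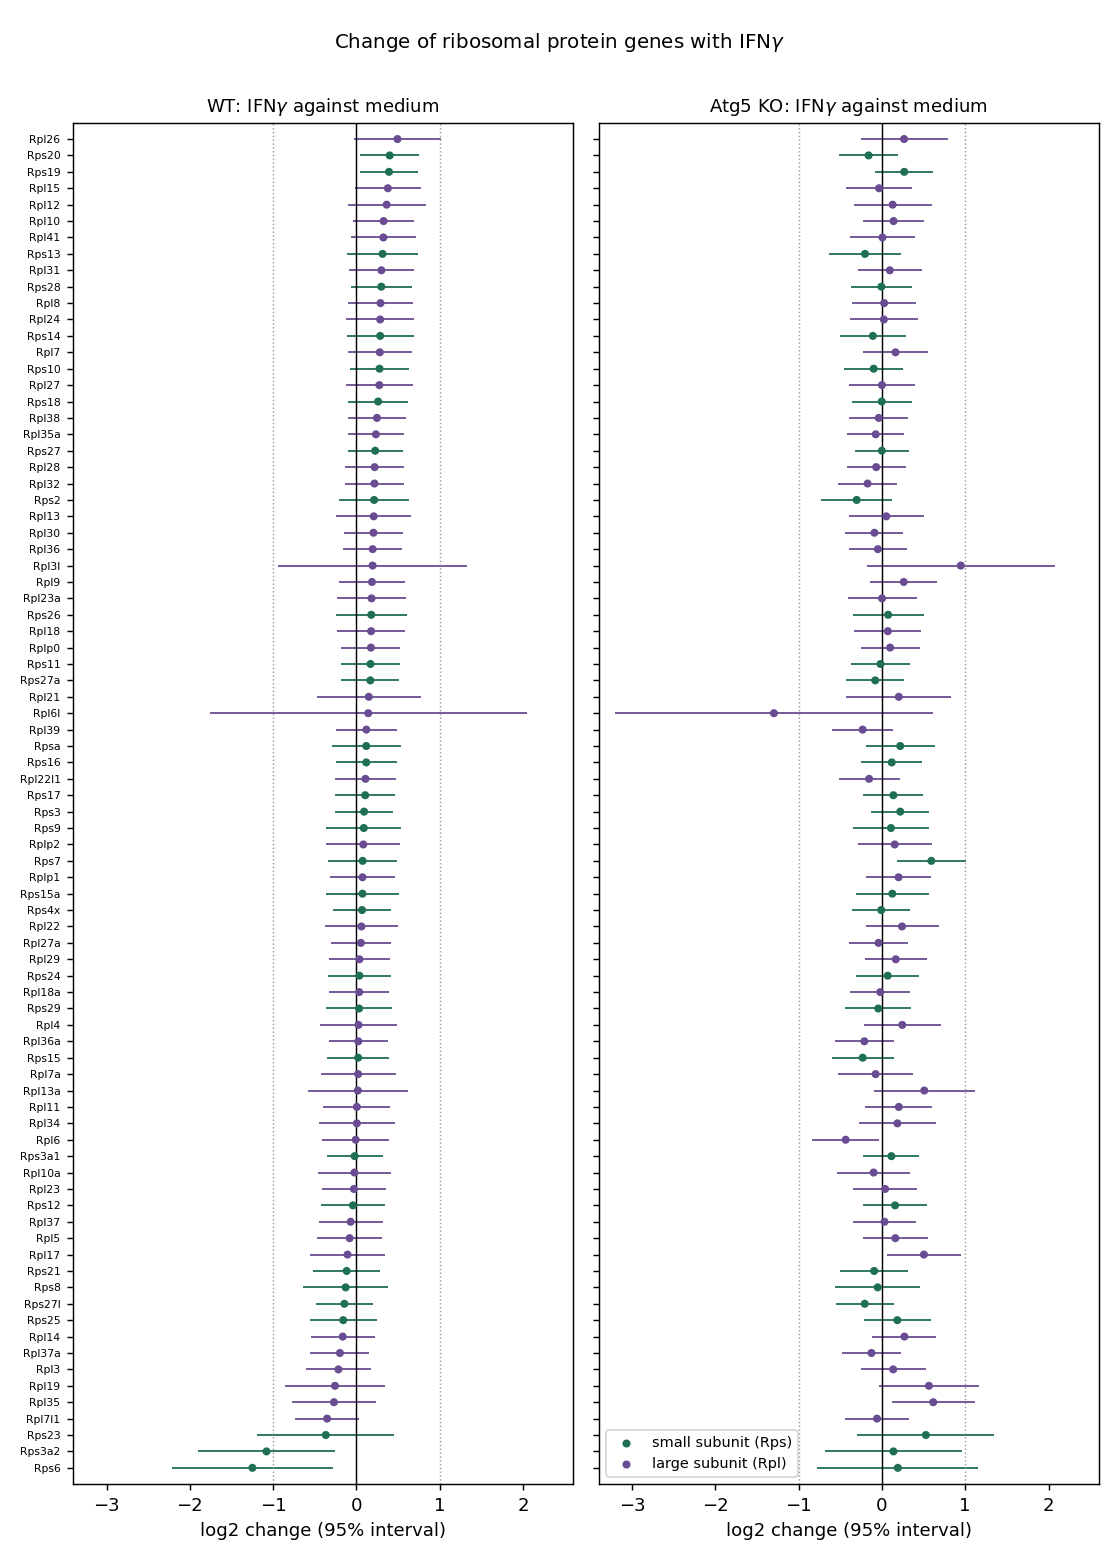
Log2 change with IFNγ against medium for the member genes, less 1 not reported here, in WT (left) and Atg5 KO cells (right), ordered by the WT change; points are limma estimates, lines 95% intervals, and dotted lines mark a log2 change of 1 in either direction. Most points lie near 0, with Rps6 at -1.25 and Rps3a2 at -1.08 in WT cells.

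The lowest estimate belonged to Rps6 (ENSMUSG00000028495, chr4:86854660-86857412, minus strand), the small subunit protein that S6 kinases phosphorylate downstream of mTORC1. In WT medium Rps6 stood at 10.80, 9.60 and 9.55 on the log2 scale in A, B and C, and with IFNγ at 8.36, 8.04 and 9.81. WT IFNγ C is above 2 of the 3 medium libraries, so the groups overlap. Its change was -1.25 (SE 0.46, limma adjusted p = 0.12). Without WT IFNγ C it was -1.79 (adjusted p = 0.0134), without KO IFNγ B, which enters through the shared spread, the adjusted p was 0.0479, and over all alternatives it ranged from 0.00985 to 0.422. In KO cells Rps6 stood at 9.43, 9.08 and 8.87 in medium and at 9.84, 8.05 and 10.07 with IFNγ, a change of 0.19 (SE 0.46, adjusted p = 0.876). Near its 3′ end 83.3% of its 50-base words are also in transcripts of other genes, 11 in all, so the assignment of its reads is uncertain.

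Rps3a2, a processed pseudogene of the Rps3a family, was next. It stood at 6.16, 5.79 and 6.19 in WT medium and at 5.81, 4.24 and 4.84 with IFNγ, from 640 reads over all 12 libraries. The groups overlap at WT IFNγ A, and the change was -1.08 (SE 0.40, adjusted p = 0.117; -1.50 and adjusted p = 0.0364 without WT IFNγ A, and -0.72 and adjusted p = 0.424 without WT IFNγ B). The protein-coding Rps3a1 was among the steadiest members at 12.09, 12.13 and 12.22 in medium and 12.21, 12.18 and 11.99 with IFNγ.

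Rps20 and Rps19, both small subunit proteins, were among the 3 members higher at an unadjusted p under 0.05, and they were picked for naming after their values were seen. Rps20 (ENSMUSG00000028234, chr4:3831334-3835665, minus strand) stood at 11.09, 11.17 and 11.26 in WT medium and 11.76, 11.55 and 11.41 with IFNγ. The groups do not overlap, and the change was 0.40 (SE 0.17, adjusted p = 0.187). Rps19, mutated in Diamond-Blackfan anaemia, stood at 11.89, 12.12 and 12.15 in medium and 12.51, 12.54 and 12.28 with IFNγ, a change of 0.39 (SE 0.17, adjusted p = 0.19). Rpl26, which binds p53 mRNA in human cells, had the highest estimate at 0.49 (SE 0.25, adjusted p = 0.281). Over all alternatives the lowest adjusted p was 0.115 for Rps19 and 0.11 for Rps20.

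The same question in KO cells gave the same count: none of 83 members passed with limma, where 7.36% of all genes and 7.59% of the other genes at or above 11 did, and none passed with voom. At an unadjusted p under 0.05 there were 3 members higher and 1 lower, against 19.3% of all genes. The median change was 0.039 (all genes 0.010), and 48 of 83 were above 0. In 75 members the 95% interval lay within a log2 change of 1. Groups did not overlap for 5 members in the higher direction (12.8% of all genes) and 1 in the lower (11.6% of all genes). Between the genotypes 34 members were above 0 in both comparisons, and Rps19 alone was separated from medium in the same direction, higher, in both, as were 5.8% of all genes; 3.74% of all genes and no member were lower in both.

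Rps7, a small subunit protein that binds the p53 ligase Mdm2 in human cells, came closest to the threshold. Rps7 (ENSMUSG00000061477, chr12:28630854-28635953, minus strand) stood at 12.61, 12.25 and 11.99 in KO medium and at 12.69, 12.81 and 13.12 with IFNγ. Its groups do not overlap, with a change of 0.59 (SE 0.20, adjusted p = 0.0808; 0.75 and adjusted p = 0.0476 without KO medium A, and adjusted p up to 0.28 over all alternatives). In WT cells it changed by 0.07 (SE 0.20, adjusted p = 0.885). Rpl35 (ENSMUSG00000062997, chr2:39001580-39005624, minus strand), at the exit of the nascent chain tunnel, stood at 12.11, 12.43 and 11.82 in KO medium and 12.45, 12.36 and 13.39 with IFNγ. KO IFNγ C alone is above 13, the groups overlap, and the change was 0.62 (SE 0.24, adjusted p = 0.145), or 0.29 (adjusted p = 0.567) without that library. Rpl17 changed by 0.50 (SE 0.21, adjusted p = 0.188), or 0.30 (adjusted p = 0.561) without KO IFNγ C, and Rpl6 by -0.44 (SE 0.19, adjusted p = 0.206).

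**Figure D3:**
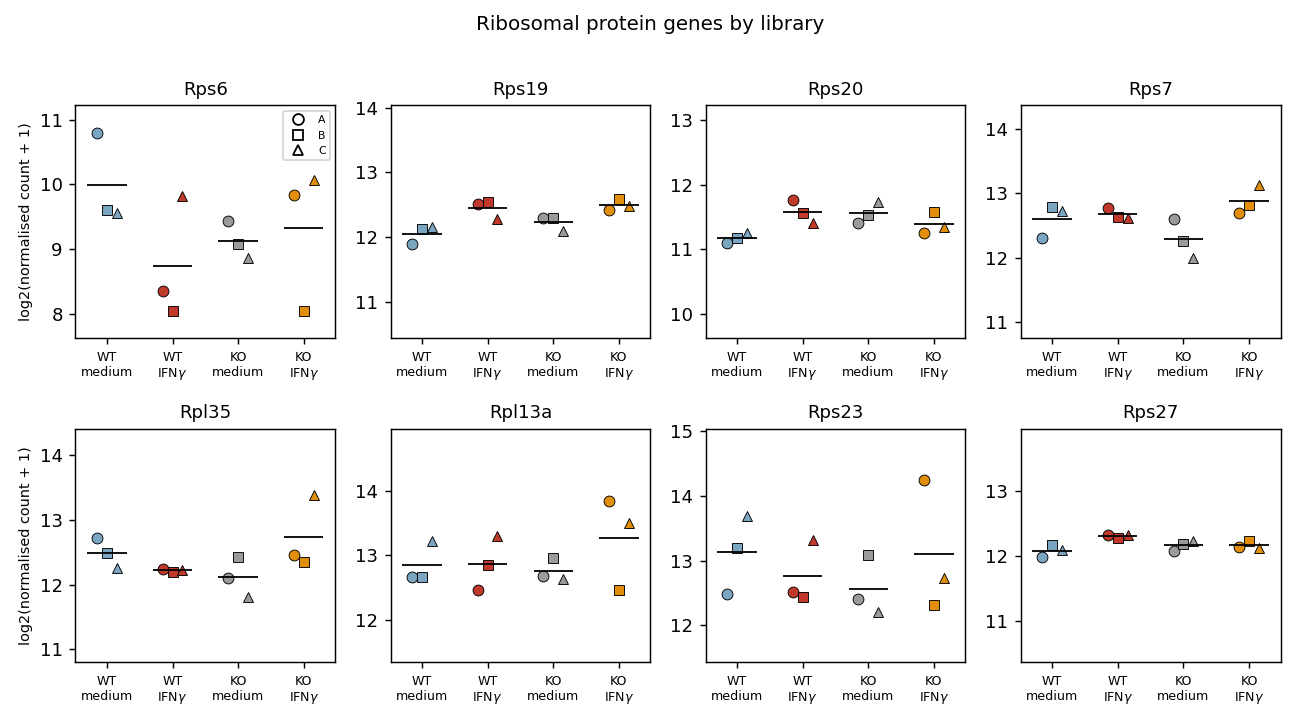
Log2 of the normalised count plus 1 for 8 ribosomal protein genes in each library; symbols mark libraries A, B and C, lines give the mean of 3, and all panels span the same number of log2 units. Rps6, Rpl13a and Rps23 spread widely within groups, while Rps27 varies little in any group.

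Rpl13a, the GAIT subunit, stood at 12.67, 12.66 and 13.22 in WT medium and 12.46, 12.85 and 13.30 with IFNγ. The groups overlap fully and the change was 0.02 (SE 0.29, adjusted p = 0.983). In KO cells it stood at 12.69, 12.96 and 12.63 in medium and at 13.84, 12.46 and 13.50 with IFNγ, where library B is below every medium library. Its change there was 0.51 (SE 0.29, adjusted p = 0.361); without KO IFNγ B it was 0.91 (adjusted p = 0.0405) and without KO IFNγ A 0.22 (adjusted p = 0.796). Rpl13a, other genes linked to GAIT and its target gene Cp were tested as a list of 7. Eprs, the tRNA synthetase that binds the target mRNA in human cells, changed by -0.14 (SE 0.21, adjusted p = 0.769) in WT and -0.11 (SE 0.21, adjusted p = 0.853) in KO cells. Of the list only Cp, which encodes the target ceruloplasmin, passed with limma: it rose by 3.40 (SE 0.41, adjusted p = 1.17e-05) in WT and 2.40 (SE 0.41, adjusted p = 0.000672) in KO cells. Cp was also higher in KO than in WT cells in medium, by 1.95 (SE 0.41, adjusted p = 0.0375), a call that ended in 13 of 24 alternatives (adjusted p up to 0.423, with voom). With voom Gapdh, the glycolytic enzyme that is part of GAIT, passed too in WT cells (adjusted p = 0.0484), where limma gave a change of 0.63 (SE 0.19, adjusted p = 0.0561).

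Rpl5 and Rpl11, which with 5S rRNA bind Mdm2 and restrain it when ribosome assembly fails, stayed within their spread. In WT cells Rpl5 stood at 12.13, 11.87 and 12.09 in medium and 12.11, 12.02 and 11.72 with IFNγ. Rpl11 stood at 12.38, 12.61 and 12.65 and at 12.65, 12.59 and 12.41. Their changes were -0.08 (SE 0.19) and 0.01 (SE 0.19) in WT cells and 0.16 (SE 0.19) and 0.20 (SE 0.19) in KO cells. Of the 8 kept genes of the 5S particle and p53 list, Mdm2 alone rose, by 1.01 (SE 0.21, adjusted p = 0.00519) in WT and 0.96 (SE 0.21, adjusted p = 0.00745) in KO cells. Mdm2 stood at 7.62, 7.77 and 7.95 in WT medium and 9.01, 9.02 and 8.34 with IFNγ, without overlap.

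The stalk proteins Rplp0, Rplp1 and Rplp2, which recruit elongation factors to the large subunit, changed by 0.17, 0.07 and 0.08 in WT and by 0.10, 0.20 and 0.15 in KO cells (SE 0.17 to 0.21). Rplp1 has the highest mean value of the members at 14.19, and Rpl6l the lowest at 2.24; counts are not divided by length, so values are not ranked between genes. Rps3, Rpsa and Rps4x changed by 0.09, 0.12 and 0.07 in WT cells and by 0.22, 0.22 and -0.01 in KO cells. Rps27a, made as a fusion with ubiquitin, changed by 0.17 (SE 0.17) and -0.08 (SE 0.17). Rpl10, which joins the large subunit late, changed by 0.33 (SE 0.18, adjusted p = 0.322) and 0.14 (SE 0.18). The very short Rpl41 and Rpl39 changed by 0.32 and 0.12 in WT cells and by 0.01 and -0.23 in KO cells. None of them passed in either genotype.

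Some ribosomal proteins have a paralog that can take their place. Of 9 such pairs examined, 5 paralogs were kept and none passed in any comparison. Rpl22l1 stood at 9.57, 9.99 and 9.90 in WT medium and 10.12, 9.87 and 9.79 with IFNγ, a change of 0.11 (SE 0.18), beside 0.06 (SE 0.21) for Rpl22. The p53-responsive Rps27l changed by -0.14 (SE 0.17) and Rps27 by 0.23 (SE 0.16). Rpl7l1 changed by -0.35 (SE 0.18, adjusted p = 0.298) and Rpl7 by 0.28 (SE 0.18, adjusted p = 0.433). Rpl3l, the striated muscle paralog of Rpl3, had 206 reads in all, with 8, 8 and 8 in KO medium and 22, 30 and 10 in KO cells with IFNγ. Its change was 0.95 (SE 0.54, adjusted p = 0.364) in KO and 0.19 (SE 0.54) in WT cells, and Rpl3 changed by 0.14 and -0.22. The paralogs and partners were not tested against each other.

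The genotype comparisons asked which ribosomal protein mRNAs differ where Atg5 is knocked out. In medium none of 83 members passed with limma, where 0.428% of all genes and 0 of the 382 other genes at or above 11 did, and none with voom. At an unadjusted p under 0.05 there was 1, Rps20 (8.26% of all genes), higher in KO cells at 11.41, 11.52 and 11.74 against 11.09, 11.17 and 11.26 (difference 0.38, SE 0.17, adjusted p = 0.578). The median KO difference was 0.031 (all genes -0.0078). Groups did not overlap for 10 members higher in KO cells (6.21% of all genes) and 1 lower (7.37% of all genes), Rps6 at -0.86 (SE 0.46, adjusted p = 0.682), or -0.45 without WT medium A. The 10 include Rps27a, Rps28, Rps29, Rpl15 and Rpl22l1, with differences of 0.27, 0.24, 0.27, 0.36 and 0.26. These comparisons share the WT and KO medium libraries with the IFNγ comparisons above.

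With IFNγ none of 83 members passed with limma between the genotypes, where 0.492% of all genes and 0 of the 382 other genes at or above 11 did, and none with voom. Rpl17 (0.52, SE 0.21, adjusted p = 0.332) and Rpl35 (0.51, SE 0.24, adjusted p = 0.402) were higher at an unadjusted p under 0.05, against 12% of all genes in either direction. KO IFNγ C held the highest value of both genes, 12.30 for Rpl17 and 13.39 for Rpl35, and without it the differences were 0.31 and 0.18. The median KO difference was -0.030 (all genes -0.0038), and 38 of 83 were above 0. Groups did not overlap for 3 members higher (7.08% of all genes) and 4 lower (9.04% of all genes) in KO cells. In these 2 comparisons the 95% interval lay within a log2 change of 1 for 76 and 75 members.

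The difference between the KO and the WT response to IFNγ was tested as an interaction. No member and no gene of the table passed with limma (0% of all genes) or voom; at an unadjusted p under 0.05 there were 3 members above 0 and 1 below, against 7.21% of all genes. The KO change less the WT change was 1.44 for Rps6 (SE 0.65, adjusted p = 0.67) and 1.22 for Rps3a2 (SE 0.56, adjusted p = 0.685). It was 0.89 for Rpl35 (SE 0.34, adjusted p = 0.618) and -0.56 for Rps20 (SE 0.24, adjusted p = 0.658). Rps6 and Rps3a2 changed by -1.25 and -1.08 in WT cells and by 0.19 and 0.14 in KO cells. The median was -0.077 (all genes -0.00033), and for 70 members the interval lay within 1. Rps6, Rps3a2 and Rpl35 share up to 83.3%, 70.9% and 96.0% of their 3′ end words with other genes, and Rps20 shares none. Over 50% was shared in at least 1 transcript end for 61 of the 83 members.

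Within groups most members were steady. The mean within-group SD was under 0.25 for 68 of 83 members. At a mean log2 value of at least 11, its median was 0.178 over 72 members and 0.228 over 382 other genes, given as a description. The steadiest were Rps27 (SD 0.0612), Rps3a1 (0.0966) and Rps27a (0.0987). Rps27, a zinc-binding protein of the small subunit, stood at 11.99, 12.16 and 12.10 in WT medium, 12.32, 12.28 and 12.33 in WT with IFNγ, 12.08, 12.19 and 12.24 in KO medium and 12.15, 12.23 and 12.13 in KO with IFNγ. The widest were Rpl6l (1.11, from 62 reads in all), Rps6 (0.762) and Rpl3l (0.645). Rps23, which helps hold decoding accuracy, followed at 0.643: it stood at 12.49, 13.19 and 13.70 in WT medium and reached 14.25 in KO IFNγ A beside 12.31 and 12.73 in B and C.

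The deviations from group means were not shared evenly. Over the 80 members with a mean log2 value of at least 8, the main axis of these deviations held 34.6% of the variance and the next 20.2%. Rps6 weighed most on the main axis, at 0.53, followed by Rpl13a (0.26), Rpl21 (0.24), Rps23 (0.20), Rpl17, Rpl12, Rpl26 and Rpl22, and on the other side stood Rps13 (-0.15), Rps26 (-0.14), Rpl18 and Rpl41. KO IFNγ B lay lowest at -2.09 and WT IFNγ A next at -1.32, while WT IFNγ C and KO IFNγ C lay highest at 1.68 and 1.37. Rpl12 shows the high C libraries, though not the low KO IFNγ B: it stood at 12.54 and 12.59 in WT IFNγ A and B and 13.35 in C, and at 12.46 and 12.46 in KO IFNγ A and B and 12.95 in C. The axis and its level limit were chosen after the data were seen, and what moves with it was not tested.

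**Figure D4:**
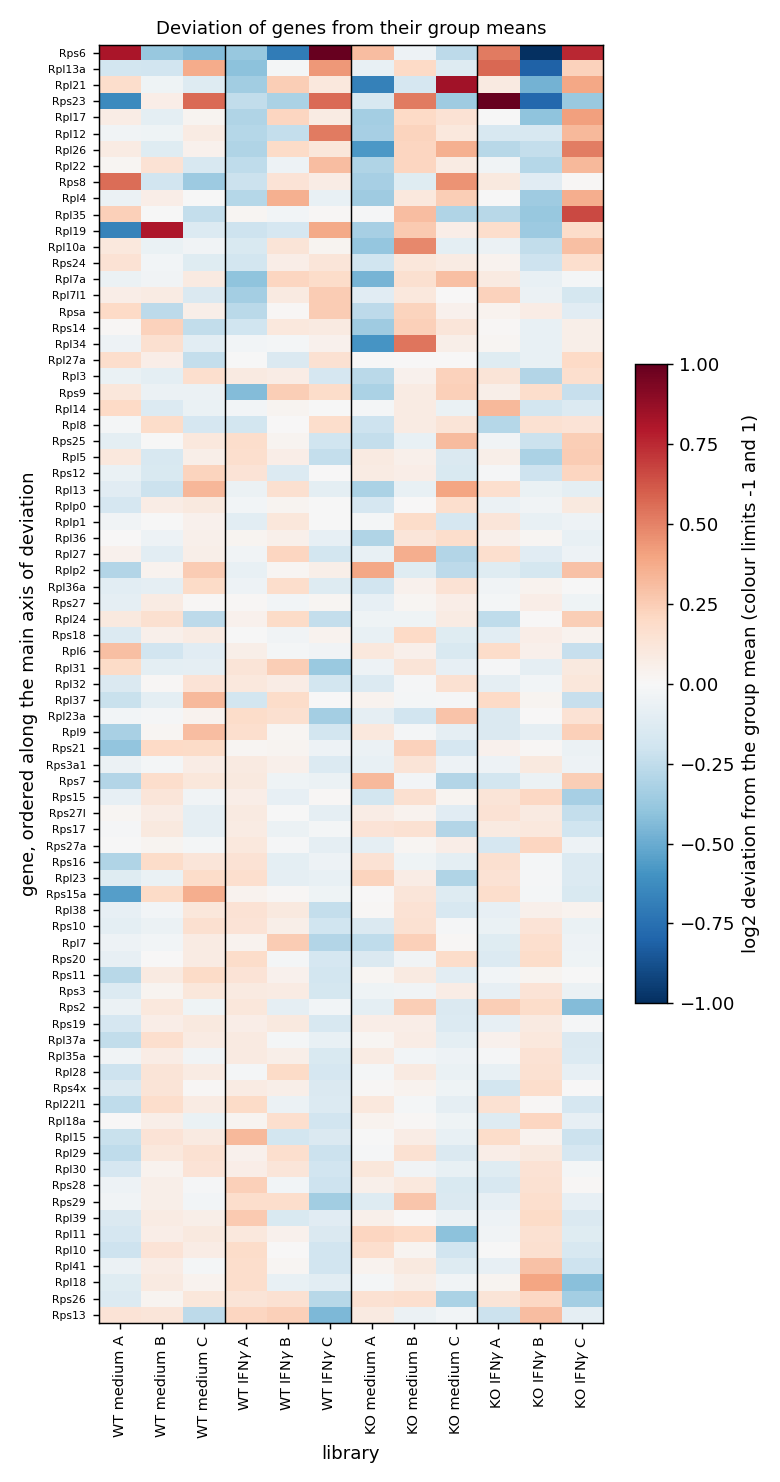
Deviation of each library from its group mean, in log2 units, for the ribosomal protein genes with a mean log2 value of at least 8, less 1 not reported here, ordered along the main axis of deviation; columns are the 12 libraries, vertical lines part the 4 groups, and colours are limited to -1 and 1. Near the top Rps6 and Rpl13a are low in KO IFNγ B and high in WT IFNγ C and KO IFNγ C. Rpl13a and Rps23 are highest in KO IFNγ A.

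Ribosomal protein genes have many processed copies, which bears on how reads are assigned. Of the 50-base words in the last 300 bases of a coding transcript in GENCODE M21, over 50% were also in a transcript of another gene for 61 of 83 members in at least 1 transcript end and for 33 in every end. The 9 members that share no word include Rpl3l, Rpl4, Rpl6, Rpl12, Rpl14, Rpl27a, Rpl37 and Rps20. For the others reads could be split with or lost to a copy, so their level is uncertain to that extent. Rps20, among the higher genes in WT cells, shares none, whereas Rps7 shares up to 99.6% and Rpl35 96.0%.

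Genes that act on ribosome supply were tested as lists, where 6.65% of all genes passed with IFNγ in WT and 7.36% in KO cells. Of 53 kept ribosome assembly genes the box H/ACA protein Nop10 fell in WT cells, by 0.74 (SE 0.20, adjusted p = 0.0282), and Noc3l rose in KO cells, by 0.85 (SE 0.25, adjusted p = 0.0445). These calls ended in 7 and 14 of 24 alternatives, with adjusted p up to 0.143 without WT medium B and 0.164 without KO IFNγ C. The list medians were -0.15 and 0.091. Between genotypes with IFNγ the assembly list had a median of 0.34 (all genes -0.0038). None of its genes passed with limma or voom, beside 14 of 53 with an unadjusted p under 0.05 (12% of all genes). None of 20 RNA polymerase I genes passed in any comparison with limma or voom. At an unadjusted p under 0.05 there were 1, 2, 0, 2 and 0 (19.9%, 19.3%, 8.26%, 12% and 7.21% of all genes). Of 20 mTORC1 and LARP1 pathway genes Deptor, an mTOR inhibitor, fell by 2.24 (SE 0.53, adjusted p = 0.0128) in WT cells and fell by 1.98 (SE 0.53, adjusted p = 0.0273) in KO cells. In KO cells the translation inhibitors Pdcd4 and Eif4ebp2 also fell, by 1.40 (SE 0.39, adjusted p = 0.0301) and 0.81 (SE 0.20, adjusted p = 0.0134). The calls of Deptor in WT, Deptor in KO, Pdcd4 and Eif4ebp2 ended in 5, 7, 6 and 2 of 24 alternatives, with adjusted p up to 0.0908, 0.125, 0.144 and 0.0832. In WT cells Pdcd4 passed without WT IFNγ C (-1.45, adjusted p = 0.019). No gene passed the interaction test with limma, so a call in a single genotype shows no difference between the genotypes. Larp1 changed by 0.08 (SE 0.18) and 0.23 (SE 0.18).

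Of 29 translation factors and other genes with TOP mRNAs none passed in WT cells with limma or voom (6.65% of all genes with limma). At an unadjusted p under 0.05 there were 4 (19.9% of all genes). The share of all genes that passed in KO cells was 7.36%. In KO cells the noncoding TOP transcript Gas5 rose, by 0.71 (SE 0.19, adjusted p = 0.0242), and Impdh2, an enzyme of guanine nucleotide synthesis, fell by 0.63 (SE 0.17, adjusted p = 0.0268). The calls of Gas5 and Impdh2 ended in 5 and 6 of 24 alternatives, with adjusted p up to 0.143 without KO IFNγ A and 0.112 without KO medium A. In the list of ribosome quality control and ribophagy, 19 genes were kept and Ascc3, a helicase that splits collided ribosomes in human cells, rose in KO cells by 1.22 (SE 0.32, adjusted p = 0.0226; 0.11 without KO IFNγ C). Nufip1, the receptor that links ribosomes to autophagosomes in human cells, stood at 8.67, 7.81 and 8.47 in KO medium and 9.37, 8.56 and 9.08 with IFNγ. Its groups overlap, and the change was 0.69 (SE 0.24, adjusted p = 0.0957). Without KO IFNγ B it was 0.91 (adjusted p = 0.0379), and without KO medium B 0.44 (adjusted p = 0.388). In WT cells Nufip1 changed by -0.16 (SE 0.24, adjusted p = 0.771). No gene of these lists passed the interaction test with limma.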

How the data were processed

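RNA was measured in 12 libraries of BV2 cells, 3 in each of 4 groups. The authors deposited 1 table of log2 values. The submitters' processing notes name DESeq2 1.10.1, HTSeq 0.6.1, FastQC 0.11.2, STAR and the build GRCm38; the annotation release and counting mode are not given in the sources used here. With the log2 and the added 1 undone and a size factor per library multiplied back, 100% of the deposited log2 values became whole within 0.01, which gave reads, depth and read shares. A gene was kept at 3 or more on the log2 scale in at least 3 libraries.

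The test was limma 3.58.1 (R 4.3.3) on the deposited values with a mean per group, a mean-variance trend and 8 residual degrees of freedom, two-sided, with Benjamini-Hochberg adjustment over all kept genes at 0.05. Adjusted p in the text are from this fit. Errors of changes are limma's standard errors. The code was tested on simulated data. Figures were drawn with matplotlib 3.10.9. Alternatives were other scalings, filters, a pseudocount of 8, voom on the recovered reads, a replicate block and leaving out libraries.

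Members and lists were chosen with earlier results of these data known. The rule for named genes took every called member, the 3 widest and 3 steadiest, the highest and lowest, and called list genes. It also took a fixed set of 25 genes of the name pattern, which includes Rpl10l, Rpl39l and Rps4l that were not kept. Chosen after values were seen were Rps3a2, Rps7, Rps19, Rps20, Rps23, Rpl6, Rpl12, Rpl15, Rpl17, Rpl26 and Rpl35, the members listed by weight on the axis or without overlap, the motifs, the printed windows and both conditions on the pyrimidine run. The 3′ end measure went through 3 definitions: with 1 transcript a gene, picked by name or by annotation level, the value hung on the transcript, so all coding transcripts are used. Promoter windows are RefSeq's, positions GENCODE M21's (GRCm38). Some genes and a motif are not reported here, and counts over members include every member. Replicates are independent preparations of 1 line.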

Additional observations from a re-analysis of the deposited data

How the results depend on the processing

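Counts of called members stayed at 0 in all 5 comparisons under the other scalings, filters, pseudocount, tests and fits restricted to the groups compared, up to 24 settings a comparison, except in some that left out libraries. Leaving out single libraries gave counts from 0 to 1 for IFNγ in WT cells and from 0 to 1 in KO cells, and 0 in the other comparisons. The single call was Rps3a2 without WT IFNγ A (-1.50, adjusted p = 0.0364) and Rps6 without WT IFNγ C (-1.79, adjusted p = 0.0134) or KO IFNγ B (-1.25, adjusted p = 0.0479). In KO cells it was Rps7 without KO medium A (0.75, adjusted p = 0.0476) and Rpl13a without KO IFNγ B (0.91, adjusted p = 0.0405). Without both IFNγ libraries of letter C the WT count was 1, Rps6 (adjusted p = 0.00985). The median change in KO cells was -0.041 with quantile normalization against 0.039, with the median of all genes then at -0.055 (0.010 as reported). With upper quartile scaling it was -0.030, with the median of all genes at -0.057. Leaving out single libraries gave -0.0043 to 0.095 for IFNγ in KO cells, -0.0043 to 0.10 between genotypes in medium (0.031 as reported, -0.0056 with quantile normalization) and -0.069 to 0.0074 with IFNγ (-0.030). The WT median of 0.11 ran from 0.089 to 0.15 with single libraries left out. It was 0.062 with upper quartile scaling and 0.038 with quantile normalization. The median of all genes was then -0.060 and -0.059 (-0.018 as reported). For the difference in response the median of the members ran from -0.12 to -0.028 with single libraries left out. The cause was not tested. The background counts moved more: over all settings 424 to 1119 genes were called in WT (730 as reported), 513 to 959 in KO cells (808), 23 to 57 between genotypes in medium (47), 18 to 89 with IFNγ (54) and 0 to 3 for the difference in response (0). Of 18 pairs of libraries with the same letter 2 had correlated deviations over 0.1 (-0.064 to 0.22). With 3 libraries a group this cannot decide whether libraries of a letter share a preparation. With the letter as a replicate block 0 members were called in each comparison, and 815, 909, 56, 89 and 1 of all genes. In every comparison this count of all genes is above the one reported. Members of few reads, Rpl6l, Rpl3l and Rps3a2, have wide intervals, and 3 libraries a group limit what a small change could show. Of the 21 calls of list genes named in the text, Cp and Mdm2 with IFNγ in both genotypes and Mrpl52 in KO cells passed in all 24 settings; the other 16 did not pass in 1 to 15 of them, and none changed sign. Mrpl13 passed in WT cells without WT IFNγ C (0.68, adjusted p = 0.045), and Mrpl34 in KO cells with upper quartile scaling (-0.64, adjusted p = 0.0411).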

Other observations

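The mitochondrial ribosomal proteins, which build the separate ribosome of mitochondria, were tested as a list of 78 kept genes. Among all kept genes 6.65% passed with IFNγ in WT and 7.36% in KO cells. In WT cells Mrpl52 rose with IFNγ, by 0.81 (SE 0.19, adjusted p = 0.00977), and Mrpl34 fell, by 0.62 (SE 0.18, adjusted p = 0.0487). In KO cells Mrpl52 and Mrpl13 rose, by 0.86 (SE 0.19, adjusted p = 0.00579) and 0.68 (SE 0.19, adjusted p = 0.0368), and Mrps2 and Mrpl33 fell, by 0.67 (SE 0.20, adjusted p = 0.0413) and 0.63 (SE 0.18, adjusted p = 0.0341). The list medians were 0.00021 and -0.081. Mrpl52 in KO cells passed in all 24 alternatives, while the calls of Mrpl52 in WT, Mrpl34, Mrpl13, Mrps2 and Mrpl33 ended in 1, 15, 9, 11 and 8 of them (adjusted p up to 0.0802, 0.23, 0.199, 0.167 and 0.164). None was called between genotypes with limma or voom, with 5 and 2 at an unadjusted p under 0.05 (8.26% and 12% of all genes). None passed the interaction test with limma either, so a call in a single genotype shows no difference between the genotypes.

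Ribosomal proteins with names outside the pattern were near 0 as well. Rack1, a scaffold on the small subunit, changed by 0.13 (SE 0.18) in WT and -0.08 (SE 0.18) in KO cells, and Fau by 0.12 (SE 0.18) and 0.03 (SE 0.18). Of 268 rows named as ribosomal protein pseudogenes 67 were kept, and none passed with IFNγ in either genotype with limma or voom. At an unadjusted p under 0.05 there were 4 in WT and 0 in KO cells (19.9% and 19.3% of all genes). Rpl14-ps1 was higher in KO than in WT cells with IFNγ, by 1.59 (SE 0.33, adjusted p = 0.0378), a call that ended in 9 of 24 alternatives (adjusted p up to 0.174).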
